A study of Mus musculus with 18 samples.

Results

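The 10 genes described here carry out antigen presentation by major histocompatibility complex (MHC) class I in the mouse: *H2-K1* and *H2-D1*, *B2m*, *Tap1*, *Tap2*, *Tapbp*, *Psmb8*, *Psmb9*, *Psmb10* and *Nlrc5*. They were taken by name as 10 of the 20615 genes in the table of estimated counts, and all 10 passed the filter on low counts. The RNA came from bone marrow-derived macrophages (BMDMs), which are macrophages grown from marrow cells in medium with M-CSF. Female mice aged 7 to 12 weeks were used, either C57BL/6 (B6) or C57BL/6.NOD-*Aec1Aec2* (SjSS), a Sjögren's syndrome susceptible strain with NOD mouse intervals on the B6 background. Each strain gave 3 untreated samples (control), 3 samples given apoptotic cells (AC) and 3 samples given CpG oligodeoxynucleotide, so that 18 samples formed 6 groups. The ACs were thymocytes killed with dexamethasone and added at 5 per BMDM for 2 h, followed by a wash. A further 3 h came next by the labels and the paper's results, whereas the paper's methods give a longer time. CpG, a ligand of the DNA receptor TLR9, was used at 1 µM for 6 h. The labels do not give a knockout or transgene in either strain. The paper took thymocytes from mice of both strains, and calls them syngeneic for its cytokine assay. Their strain in each sample here is not given in the sources used. Strain of the BMDMs and strain of the thymocytes may therefore go together in the AC comparisons between strains.

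Class I molecules show peptides from inside the cell to CD8 T cells, which read them for signs of infection or change. Proteasomes cut proteins into peptides, the TAP transporter moves the peptides into the endoplasmic reticulum, and tapasin holds TAP beside the empty class I molecule until a peptide fits. Interferons raise most genes of this route through IRF and other factors, and NLRC5 is a transactivator devoted to class I genes. In macrophages the route also serves cross-presentation, in which peptides of engulfed material, dead cells included, reach class I.

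ACs raised all 10 genes in SjSS BMDMs, by 1.36-fold for *H2-D1* to 7.16-fold for *Tap1*. At the same threshold, an adjusted p under 0.05, 28.6% of all tested genes rose. In B6 BMDMs the same treatment raised 4 of them, *B2m*, *Tap1*, *Tapbp* and *Psmb8*, by no more than 1.34-fold, beside 20.0% of all tested genes. The difference between the strains' responses to ACs was itself past the test for 9 of the 10 genes (19.6% of all tested genes upward). *H2-D1* was the exception in the fit used here, which did not pair samples by replicate number. CpG raised 8 of the 10 genes in B6 (28.1% of all tested genes) and 6 in SjSS (27.8%). For none of the 10 did the CpG response differ between strains at the threshold. Of all tested genes, 3.23% passed it upward and 2.62% downward. No gene of the 10 passed the test downward in any of the 9 comparisons, in which 2.62% to 29.8% of all tested genes did. Levels are given as CPM, the count of a gene scaled to its library total after that total was multiplied by a TMM factor. The factors were 0.833 to 0.838 in AC treated SjSS samples and 1.10 to 1.13 in SjSS controls. In B6 they were 1.02 to 1.04 with ACs and 1.06 to 1.09 in controls. CPM values therefore differ from plain shares of the library totals.

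**Figure D1:**
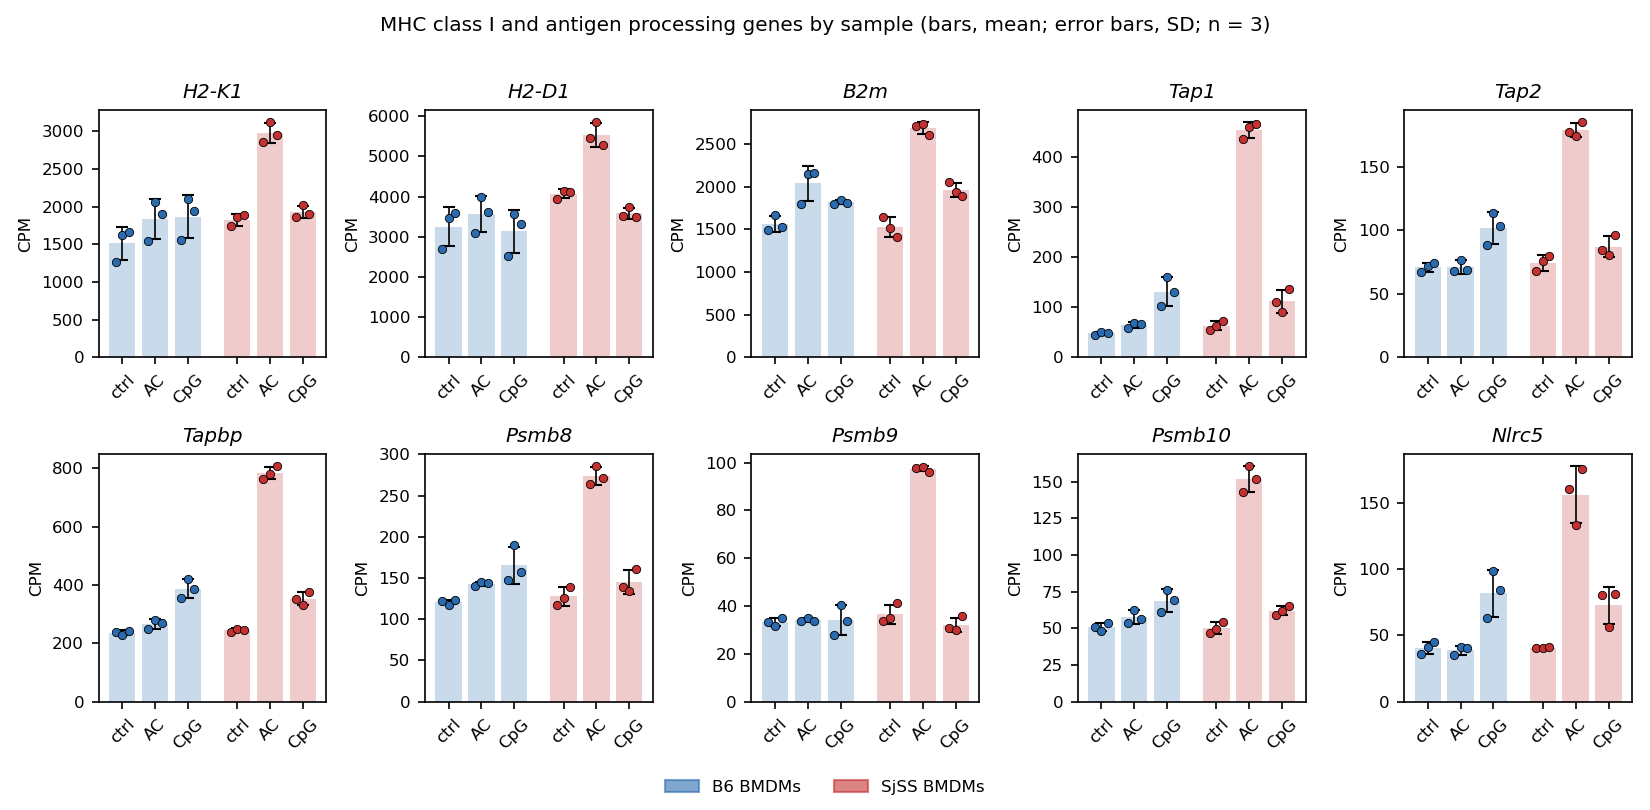
TMM scaled CPM (linear axes from 0) of the 10 genes in all 18 samples, with B6 in blue and SjSS in red. Points are samples, bars are means and error bars are SD of 3 samples. The 3 AC treated SjSS samples are the highest of the 18 in every panel.

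The libraries held 30688336 to 57139662 counts, with a median of 47912526. The 10 genes together took 0.637% to 0.918% of the counts of a sample outside the AC treated SjSS group, and 1.08% to 1.15% within it. Marker genes of cell types were also read. The 8 macrophage markers summed to 15110 to 23750 CPM over all samples, and in AC treated SjSS BMDMs to 18030 to 18750 against 15110 to 15770 in the SjSS controls. In AC treated B6 they summed to 15650 to 16620 against 17650 to 18390. *Lyz2* was the largest part of these sums, and single markers went different ways. With ACs in SjSS, *Cd14* (4.28-fold), *Fcgr1* (2.86-fold), *Adgre1*, *Cd68* and *Lyz2* rose at adjusted p under 0.05. *Mertk* fell to 0.688 of control, and *Csf1r* and *Itgam* did not pass. In B6 *Adgre1* and *Cd14* rose, *Csf1r*, *Itgam*, *Mertk* and *Lyz2* fell, and *Cd68* and *Fcgr1* did not pass. The sums are thus a coarse reading of cell type. Thymocytes were the added cells, so T-lineage genes were read beside the AC results. Of 12 such genes, only 4 passed the filter. Together they summed to 8.63 to 10.8 CPM in B6 controls and 5.28 to 6.11 CPM with ACs, and to 10.9 to 12.5 CPM in SjSS controls and 15.1 to 19.3 CPM with ACs. *Cd4* made up most of each sum, and without it, a step chosen after the values were seen, the other 11 summed to 1.93 to 2.56 CPM in AC treated B6 and 2.20 to 3.36 CPM in AC treated SjSS, against 0.897 to 1.46 and 1.12 to 1.73 CPM in the controls. *Rag1*, a gene of immature thymocytes, was at 0 in both control groups and in both CpG groups. *Themis*, another of the 12 genes, was at 0 in AC treated SjSS and in CpG treated B6, and *Trac* in B6 controls. Without *Cd4* the sums were higher in every AC sample than in any control, in both strains. The 4 dendritic cell markers summed to 2.61 to 3.46 CPM in AC treated SjSS BMDMs and to at most 2.16 CPM elsewhere. *Xcr1* made up most of that sum, going from 0.279 to 2.13 CPM with ACs in SjSS (adjusted p = 1.60e-07), while *Clec9a* fell from 0.536 to 0.263 CPM (adjusted p = 0.0359). *Xcr1* rose in the other responses too, from 0.148 to 0.426 CPM with ACs in B6 (adjusted p = 0.00265). With CpG it went to 0.959 CPM in B6 (adjusted p = 1.61e-06) and 0.909 CPM in SjSS (adjusted p = 0.000186). The 4 B cell markers summed to 12.8 to 13.5 CPM in AC treated SjSS against 19.8 to 26.5 CPM in the SjSS controls, and the 1 neutrophil marker in the table to 1.84 to 11.1 CPM over all samples. *Cd79b* made up most of the B cell sums and fell in all 4 responses. It went from 16.4 to 11.7 CPM with ACs and 9.84 CPM with CpG in B6, and from 21.8 to 12.5 and 12.9 CPM in SjSS. The part of any of these in the results was not tested. In bulk RNA, more cells of a type and more RNA per cell cannot be told apart.

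The test for all fold changes was edgeR's quasi-likelihood F-test across 15789 genes, with Benjamini-Hochberg adjustment within each comparison. A gene was called by the rule of the study's methods, an adjusted p under 0.05 with a log2 fold change over 1.3, and each count is also given at adjusted p under 0.05 alone. Elsewhere the study gives the same threshold as a plain fold change. In SjSS BMDMs, ACs brought 5 of the 10 genes past the call rule, which 7.09% of all tested genes met upward, and 10 of 10 past the adjusted p alone, which 28.6% met upward. The median log2 fold change of the 10 was 1.34, beside -0.02 over all tested genes. In B6 BMDMs 0 of the 10 met the call rule (2.43% of all genes) and 4 met the adjusted p alone (20.0%), and the median of the 10 was 0.17. With 1.3 read as a plain fold, 2 of the 10, *B2m* and *Tap1*, were called with ACs in B6 (10.6% of all tested genes) and 10 of 10 in SjSS (19.8%). On that reading CpG called 6 in B6 (19.6%) and 3 in SjSS (18.8%), SjSS against B6 called 10 with ACs (17%), 0 in controls (5.37%) and 0 with CpG (7.08%), and the interaction of strain and treatment called 9 for AC (14.7%) and 0 for CpG (2.69%). In TMM scaled CPM, the 3 AC samples lay above the 3 controls for all 10 genes in SjSS, as for 31.5% of all tested genes. They did so for 4 of the 10 in B6, as for 25.7% of all tested genes. The B6 count was unstable: it was 1 without B6 control replicate 1, B6 AC replicate 2 or B6 AC replicate 3, and 2 without B6 control replicate 2, while the SjSS count was 10 with any of the 18 samples left out.

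*Nlrc5* (chr8:94434356-94527272, plus strand, mm10 as in all coordinates here) encodes the transactivator that assembles with RFX and CREB/ATF proteins on class I promoters. Its 3 control values were 36.0, 41.1 and 44.97 CPM in B6 and 40.4, 40.2 and 41.4 CPM in SjSS. After ACs they were 35.0, 41.0 and 40.6 CPM in B6 and 160.7, 133 and 176 CPM in SjSS. The B6 samples overlapped with their controls, and every SjSS sample was more than 3 times its highest control. The log2 fold change was -0.07 ± 0.15 (SE, adjusted p = 0.774) in B6 and 1.95 ± 0.15 (adjusted p = 1.52e-09) in SjSS. The difference between these responses was 2.01 ± 0.21 on the log2 scale (adjusted p = 3.94e-07). CpG raised *Nlrc5* in both strains, to 63.1, 98.5 and 84.6 CPM in B6 and to 80.3, 56.7 and 81.7 CPM in SjSS. A lincRNA, *9330175E14Rik*, lies on the opposite strand across 748 bases of the gene with a mean of 170.4 counts, and whether the libraries kept strand is not given in the sources used here.

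*Psmb8*, *Psmb9* and *Psmb10* encode the 3 catalytic subunits that replace the constitutive ones in the immunoproteasome, which favours cuts that leave ends fit for class I. *Psmb8* (chr17:34197721-34201454, plus strand) was at 122, 117 and 123 CPM in B6 controls and rose to 139.9, 145 and 144 CPM with ACs. In SjSS it rose from 117, 126 and 139 CPM to 265, 286 and 271 CPM. The log2 fold changes were 0.24 ± 0.08 in B6 (adjusted p = 0.0273) and 1.10 ± 0.08 in SjSS (adjusted p = 1.37e-09), so that both strains moved, SjSS further. The B6 rise no longer passed without B6 control replicate 1 or 2 or without B6 AC replicate 2 or 3, at adjusted p = 0.0536 to 0.0831.

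*Psmb9* (chr17:34181988-34187764, minus strand) did not pass the test with ACs in B6, where controls were at 33.1, 31.5 and 35.0 CPM and AC samples at 33.9, 34.9 and 33.6 CPM (adjusted p = 0.801). In SjSS it rose from 33.8, 34.8 and 41.0 CPM to 97.9, 98.2 and 96.2 CPM, a log2 fold change of 1.41 ± 0.10 (adjusted p = 5.09e-10). The 3 AC treated SjSS samples were close together and far above all others. *Psmb10* (chr8:105935735-105938444, minus strand) was at 51.0, 48.4 and 53.9 CPM in B6 controls and 53.8, 62.6 and 56.6 CPM with ACs (adjusted p = 0.101). Its SjSS values went from 46.4, 49.5 and 54.3 CPM to 143, 161 and 152 CPM, a log2 fold change of 1.60 ± 0.08 (adjusted p = 3.65e-12).

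*Tap1* (chr17:34187553-34197225, plus strand) and *Tap2* (chr17:34203527-34216321, plus strand) encode the subunits of the peptide transporter. *Tap1* showed the largest response of the 10 genes. It was at 44.4, 50.3 and 49.8 CPM in B6 controls and at 58.3, 69.4 and 66.0 CPM with ACs, a log2 fold change of 0.42 ± 0.14 (adjusted p = 0.0260). In SjSS it went from 55.2, 62.5 and 72.6 CPM to 436, 461 and 466 CPM, a log2 fold change of 2.84 ± 0.15 (adjusted p = 6.04e-12). By log2 fold change it ranked 355 of 15789 tested genes in SjSS and 2269 of 15789 in B6. The B6 rise no longer passed without B6 control replicate 1, B6 AC replicate 2 or B6 AC replicate 3, at adjusted p = 0.0671 to 0.0953.

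*Tap2* stayed between 67.2 and 77.1 CPM in all 6 control and AC treated B6 samples (log2 fold change 0.00 ± 0.09, adjusted p = 0.985). In SjSS it rose from 67.8, 75.9 and 80.1 CPM to 177, 174 and 185 CPM, a log2 fold change of 1.26 ± 0.09 (adjusted p = 3.18e-10). The partner genes of one transporter thus differed in the size of their rise in the same samples, 7.16-fold for *Tap1* and 2.40-fold for *Tap2*.

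*Tap1* and *Psmb9* are transcribed away from each other. Their RefSeq start sites on GRCm38.p6 lie at chr17 positions 34187556 and 34187330, with 225 bases between them, and the 300-base promoter windows of the pair share 275 bases. In GENCODE M21 the genes overlap by 212 bases on opposite strands, so that a few of their reads may be interchangeable. In SjSS BMDMs both rose with ACs, whereas with CpG *Tap1* rose in both strains and *Psmb9* did not pass in either, at log2 fold changes of 0.03 ± 0.10 in B6 (adjusted p = 0.820) and -0.19 ± 0.10 in SjSS (adjusted p = 0.133).

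*Tapbp* (chr17:33915899-33929288, plus strand) encodes tapasin, the chaperone that bridges TAP and the class I molecule. B6 controls were at 239, 227 and 242 CPM and AC treated B6 samples at 248, 280.5 and 268 CPM, a log2 fold change of 0.17 ± 0.06 (adjusted p = 0.0462). That rise no longer passed in 12 of the 18 fits that left out 1 sample, at adjusted p = 0.0516 to 0.191. It passed only without B6 AC replicate 1, B6 CpG replicate 1 or 2, SjSS control replicate 3 or SjSS CpG replicate 2 or 3. It also missed the threshold without the filter on low counts (adjusted p = 0.0724) and in a fit of the compared groups alone (adjusted p = 0.0553). In SjSS *Tapbp* rose from 239, 250.4 and 246 CPM to 764, 780 and 807 CPM, a log2 fold change of 1.68 ± 0.07 (adjusted p = 7.20e-14), the smallest p of the 10. The gene *Zbtb22* lies on the same strand across 3422 bases of it with a mean of 2282 counts, and how reads from the shared bases were divided is not given in the sources used here.

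*H2-K1* (chr17:33996017-34000333, minus strand) and *H2-D1* (chr17:35262730-35267499, plus strand) encode the classical heavy chains of these strains' background, and *B2m* (chr2:122147686-122153083, plus strand) encodes beta-2 microglobulin, the light chain that every class I molecule needs. *H2-K1* controls were at 1262, 1624 and 1659 CPM in B6 and 1737, 1863 and 1885 CPM in SjSS. With ACs the values were 1545, 2064 and 1908 CPM in B6 and 2859, 3123 and 2946 CPM in SjSS. The B6 groups overlapped (log2 fold change 0.28 ± 0.11, adjusted p = 0.0611), and the SjSS groups did not (0.70 ± 0.11, adjusted p = 2.98e-05). The B6 value passed by DESeq2 (adjusted p = 0.0360) and without B6 control replicate 3, B6 AC replicate 1 or B6 CpG replicate 1 or 2 (adjusted p = 0.0120 to 0.0491). It also passed in edgeR with the replicate number as a block within strain (adjusted p = 8.46e-05), a pairing that the labels do not state.

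*H2-D1* controls were at 2693, 3462 and 3591 CPM in B6 and 3953, 4150 and 4125 CPM in SjSS. With ACs they were 3096, 3989 and 3624 CPM in B6 and 5464, 5856 and 5290 CPM in SjSS. This was the smallest SjSS rise of the 10, at 0.44 ± 0.12 on the log2 scale (adjusted p = 0.00301), and the B6 value was 0.14 ± 0.12 (adjusted p = 0.393). The separation of the SjSS groups rested on the TMM scaling. By plain share of library totals they overlapped, with 211447 of 46212590 counts in AC replicate 1 and 227554 of 48645217 in control replicate 3. With the block within strain the B6 value passed (adjusted p = 0.0312). Replicate 1 was the lowest of its 3 for both heavy chain genes in each of the 3 B6 groups and in SjSS controls. These genes share long stretches of sequence with other class I genes, and the counting tool could split reads among them. With 13 class I genes summed into 1 feature, of which *H2-K1* and *H2-D1* held 85.0% to 93.8% in a sample, ACs gave a log2 fold change of 0.23 ± 0.12 in B6 (adjusted p = 0.132) and 0.66 ± 0.12 in SjSS (adjusted p = 8.58e-05).

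*B2m* rose in both strains. B6 went from 1488, 1663 and 1523 CPM to 1801, 2147 and 2159 CPM (log2 fold change 0.39 ± 0.07, adjusted p = 0.000266), and SjSS from 1648, 1515 and 1414 CPM to 2711, 2736 and 2601 CPM (0.81 ± 0.07, adjusted p = 1.04e-08). Neither pair of groups overlapped, and the B6 value passed the adjusted p with any of the 18 samples left out.

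The promoters of the heavy and light chain genes are shown because NLRC5 and its RFX and CREB/ATF partners are known to act at a set of boxes that these genes share. RefSeq windows on GRCm38.p6, of 250 bases before and 50 after the start, were at hand for 8 of the 10 genes, *Tap2* and *Nlrc5* being the others. Letters searched on both strands were GAAANNGAA (interferon-response type), TTCNNNGAA (GAS type, read the same on both strands), GGGGATTCC and GGGACTTTC (kappaB types), TGACG (core of the X2 box) and CCAAT (Y box). The stretches below run from 190 to 11 bases before the start on the gene's own strand, and capitals mark the matches, with ATTGG and GAAAGTCCC as the reverse complements of CCAAT and GGGACTTTC.
H2-K1, chr17:34000358-34000537, minus strand: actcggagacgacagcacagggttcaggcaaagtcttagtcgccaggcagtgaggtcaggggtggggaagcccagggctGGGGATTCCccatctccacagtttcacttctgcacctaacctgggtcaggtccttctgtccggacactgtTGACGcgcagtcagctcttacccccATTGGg
B2m, chr2:122147497-122147676, plus strand: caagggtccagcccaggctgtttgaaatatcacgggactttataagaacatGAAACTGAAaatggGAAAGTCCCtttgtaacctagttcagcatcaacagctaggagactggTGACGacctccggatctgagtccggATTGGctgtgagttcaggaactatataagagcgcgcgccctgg

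In the H2-K1, H2-D1 and B2m windows, TGACG on the gene's strand was followed by ATTGG with 25 bases between their first letters. The 3 stretches of 30 bases are set out to show that spacing, with the boxes in capitals.
H2-K1, chr17:34000359-34000388, minus strand: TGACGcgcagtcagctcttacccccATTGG
H2-D1, chr17:35262993-35263022, plus strand: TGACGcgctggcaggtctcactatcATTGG
B2m, chr2:122147609-122147638, plus strand: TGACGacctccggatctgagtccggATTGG
The bases between the boxes differed from gene to gene. This arrangement stood in 19 (0.0578%) of the 32851 windows of the RefSeq table, although the spacing was picked after these sequences were seen. TGACG alone stood in 20.8% of windows and CCAAT in 37.4%.

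*H2-K1* and *H2-D1* also shared GGGGATTCC, 111 and 171 bases before the start, a run of letters found in 0.250% of windows. RefSeq has another start for *H2-K1*, from which GGGGATTCC lies 125 bases and TGACG 55 bases upstream, in place of 111 and 41. *B2m* held GGGACTTTC (0.353% of windows) 125 bases and GAAANNGAA (8.56% of windows) 139 bases before its start. *Tap1* held TGACG 86 bases and CCAAT 222 bases before its start, and the *Psmb9* window held the same letters from the other side, 144 and 8 bases before its own start. *Psmb8* held TTCNNNGAA (8.30% of windows) 97 bases before its start. *Tapbp* held CCAAT, 248 and 165 bases before its start, and the *Psmb10* window matched none of these letters. The matches are a description of the windows. Only these exact letters were searched, so a window without a match may hold a related site with other letters. The genes with the shared spacing, *H2-K1*, *H2-D1* and *B2m*, had the 3 smallest log2 fold changes of the 10 with ACs in SjSS, at 0.44 to 0.81. They also had the highest levels of the 10 per kb of exon in every group. Whether the boxes bear on the responses was not tested, and *Tap2* and *Nlrc5* had no window to search.

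The strains' responses to ACs were compared by the interaction of strain and AC, the SjSS log2 fold change less that of B6. By the call rule 5 of the 10 genes were higher in SjSS (4.76% of all tested genes), and by the adjusted p alone 9 of 10 (19.6%). The differences were 2.41 ± 0.21 for *Tap1* (adjusted p = 2.50e-08), 1.51 ± 0.09 for *Tapbp* (3.35e-10), 1.42 ± 0.12 for *Psmb10* (1.36e-08) and 1.37 ± 0.14 for *Psmb9* (3.78e-07), which with *Nlrc5* met the call rule. They were 1.26 ± 0.12 for *Tap2* (1.70e-07), 0.86 ± 0.12 for *Psmb8* (1.30e-05) and 0.43 ± 0.10 for *B2m* (0.00247). *H2-K1* differed by 0.42 ± 0.16 (adjusted p = 0.0454), which no longer passed in 13 of the 18 fits without 1 sample (adjusted p = 0.0503 to 0.131). It passed only without B6 control replicate 1, B6 AC replicate 2 or a B6 CpG sample. *H2-D1* differed by 0.31 ± 0.16 (adjusted p = 0.158, 95% interval -0.02 to 0.63), and passed without B6 control replicate 1 (0.42, adjusted p = 0.0381). It also passed with the replicate number as a block within strain (0.30, adjusted p = 0.00239), a pairing that the labels do not state. With the 13 class I genes summed, the difference was 0.42 ± 0.17 (adjusted p = 0.0508). All these differences include the TMM scaling, whose factors fell further from control to AC in SjSS than in B6. How far the smaller ones, those of *H2-K1*, *H2-D1* and *B2m*, depend on it was not tested.

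**Figure D2:**
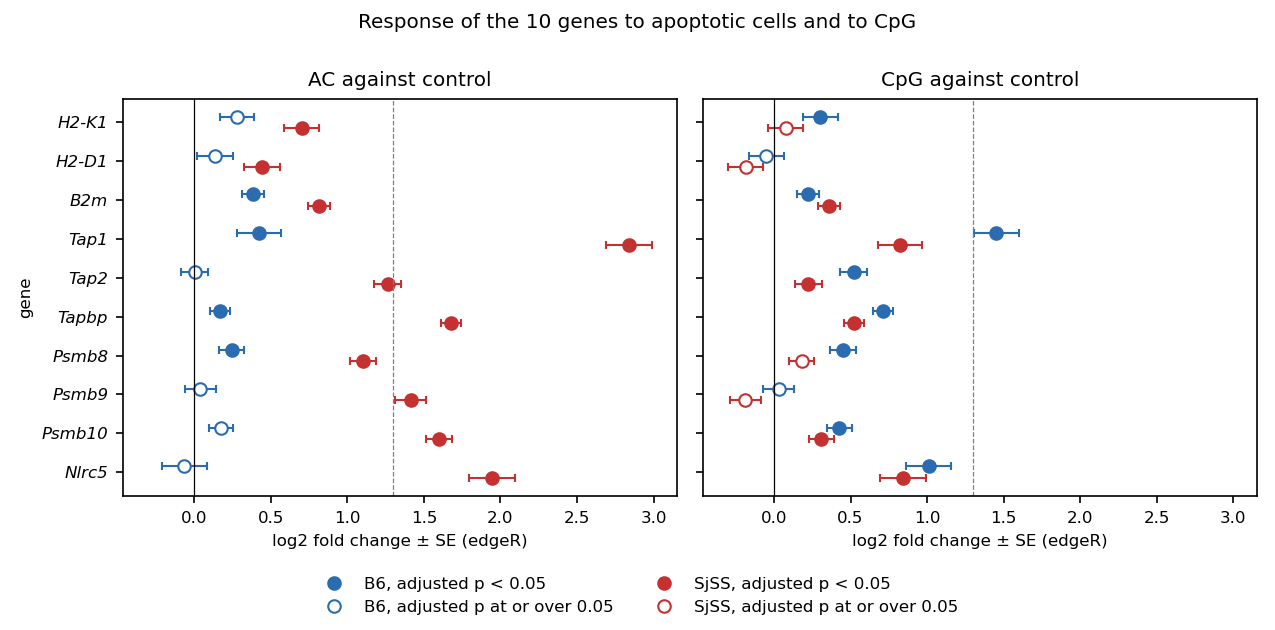
Log2 fold changes with SE of the 10 genes for AC and for CpG against control, in B6 (blue) and SjSS (red), from 3 samples a group. Filled points passed an adjusted p of 0.05, and the dashed line marks the log2 fold change of 1.3. In the AC panel all SjSS points lie right of the B6 points. In the CpG panel the strains lie within 0.30 of each other except for *Tap1*, at 1.45 in B6 and 0.82 in SjSS. *Tap1* of B6 is the one point past the dashed line there.

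In SjSS the responses to CpG were smaller than those to ACs for all 10 genes. In B6 the CpG values of *Tap1*, *Nlrc5*, *Tapbp*, *Tap2*, *Psmb8*, *Psmb10* and *H2-K1* were above their AC values, for *H2-K1* by little (0.30 against 0.28). Those of *B2m*, *H2-D1* and *Psmb9* were below. These differences between the treatments were not tested. In B6, *Tap1* alone met the call rule (1 of 10, beside 5.86% of all tested genes), and 8 of 10 met the adjusted p alone (28.1%). In SjSS 0 of 10 met the call rule (4.81%) and 6 of 10 the adjusted p alone (27.8%). *Tap1* rose to 103, 161 and 131 CPM in B6 (log2 fold change 1.45 ± 0.15, adjusted p = 6.33e-08) and to 109.8, 90.7 and 136 CPM in SjSS (0.82 ± 0.14, adjusted p = 7.58e-05). Without B6 CpG replicate 2, the highest of these, no gene of the 10 met the call rule in B6. *Nlrc5* rose by 1.01 ± 0.15 in B6 (adjusted p = 8.12e-06) and 0.84 ± 0.15 in SjSS (8.02e-05), and *Tapbp* by 0.71 ± 0.06 (1.47e-08) and 0.52 ± 0.06 (1.18e-06).

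*Tap2*, *Psmb10* and *B2m* also rose with CpG in both strains. *Tap2* changed by 0.52 ± 0.09 in B6 (adjusted p = 4e-05) and 0.23 ± 0.09 in SjSS (0.0361), *Psmb10* by 0.43 ± 0.08 (0.000165) and 0.31 ± 0.08 (0.00339), and *B2m* by 0.22 ± 0.07 (0.0124) and 0.36 ± 0.07 (0.000278). The SjSS value of *Tap2* no longer passed without SjSS control replicate 1 or 2, SjSS CpG replicate 1 or 3 or B6 CpG replicate 3 (adjusted p = 0.0503 to 0.203), nor did the B6 value of *B2m* without B6 control replicate 1 (adjusted p = 0.0553). *Psmb8* rose in B6 (0.45 ± 0.08, adjusted p = 0.000127), and its SjSS value was 0.18 ± 0.08 (adjusted p = 0.0786). *H2-K1* rose in B6 by 0.30 ± 0.11 (adjusted p = 0.0293), which did not hold without B6 control replicate 1 or B6 CpG replicate 2 or 3 (adjusted p = 0.0730 to 0.176), in a fit of the compared groups alone (0.0760) or in the class I sum (0.386). *H2-D1* did not pass in either strain, at -0.05 ± 0.12 in B6 and -0.19 ± 0.12 in SjSS, where all 3 CpG samples lay below the controls. In a fit of the compared groups alone that SjSS value passed downward (adjusted p = 0.0151). The SjSS value of *Psmb8* passed without B6 CpG replicate 2, SjSS control replicate 3 or SjSS CpG replicate 2 (adjusted p = 0.0292 to 0.0418).

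For the interaction of strain and CpG, 0 of the 10 genes met the call rule (0.285% of all tested genes) or the adjusted p alone (3.23%) by edgeR, and 3, *Tap1*, *Tap2* and *Psmb8*, had an unadjusted p under 0.05. The share of all tested genes at that unadjusted p was not counted. The largest value was that of *Tap1*, -0.63 ± 0.20 on the log2 scale, a smaller rise in SjSS (adjusted p = 0.0779, 95% interval -1.03 to -0.23). By DESeq2 it was 1 of 10, *Tap1* at -0.65 (adjusted p = 0.0170), and in edgeR *Tap1* passed without B6 CpG replicate 1, SjSS control replicate 1 or SjSS CpG replicate 3 (adjusted p = 0.0172 to 0.0490). The other 9 lay between -0.30 for *Tap2* and 0.14 for *B2m*.

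The strains were also compared within each condition, with the same samples as above, so these values are not separate evidence. In control BMDMs 0 of the 10 genes met the call rule (1.3% of all tested genes) or the adjusted p alone (9.04%) by edgeR. *H2-K1*, *H2-D1* and *Tap1* were higher in every SjSS control than in every B6 control, by 0.27 ± 0.11, 0.33 ± 0.12 and 0.40 ± 0.14 (adjusted p = 0.104, 0.0550 and 0.0606), and these 3 had an unadjusted p under 0.05. The shares of all tested genes with such a separation or such an unadjusted p were not counted. By DESeq2 *H2-D1* and *Tap1* passed (adjusted p = 0.0223 and 0.0273). In edgeR *H2-D1* passed in 4 and *Tap1* in 5 of the fits without 1 sample, at adjusted p = 0.0206 to 0.0440 and 0.0280 to 0.0397. *Nlrc5* stood at 40.7 ± 4.51 CPM in B6 and 40.7 ± 0.643 CPM in SjSS (mean ± SD, n = 3).

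With ACs, 6 of the 10 genes were called higher in SjSS than in B6 (6.24% of all tested genes), and 10 of 10 met the adjusted p alone (24.0%). *Tap2* joined the 5 genes of the interaction, at a log2 difference of 1.33 ± 0.09 (adjusted p = 3.19e-10). *Tap1* stood at 454 ± 16.2 CPM in SjSS against 64.6 ± 5.70 CPM in B6. *H2-D1* differed by 0.63 ± 0.12 (adjusted p = 0.000173), of which 0.33 was present in the controls. With CpG, 0 of 10 met the call rule (1.82%) or the adjusted p alone upward (10.2%) by edgeR. 3 had an unadjusted p under 0.05, all lower in SjSS, *Tap2* (-0.23 ± 0.09, adjusted p = 0.0771), *Psmb8* (-0.19 ± 0.08, adjusted p = 0.120) and *Tapbp* (-0.13 ± 0.06, adjusted p = 0.156). How many of all tested genes had such an unadjusted p was not counted. *Tap2* passed by DESeq2 (-0.25, adjusted p = 0.0352).

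Levels were set between genes after division by exon length, the merged exons of all annotated transcripts of a gene. That length was 860 bases for *B2m* and 3381 for *Psmb8*. It can exceed the length of the transcript present, so the order is approximate. In B6 controls the order per kb of exon was *B2m* (1811 ± 107 CPM per kb), *H2-D1* (1259.7 ± 188), *H2-K1* (516 ± 74.7), *Tapbp* (65.1 ± 2.23), *Psmb8* (35.7 ± 0.848), *Psmb10* (29.97 ± 1.62), *Tap2* (18.8 ± 0.923), *Psmb9* (9.07 ± 0.470), *Tap1* (8.79 ± 0.599) and *Nlrc5* (4.79 ± 0.531). *Psmb9* and *Tap1* were neighbours whose values did not differ beyond their spread. In SjSS controls *Tap1* (11.6 ± 1.59) stood above *Psmb9* (9.99 ± 1.07), in the eighth place, and in AC treated SjSS BMDMs it was in the sixth, at 82.9 ± 2.96 CPM per kb. It then lay level with *Psmb10* (89.0 ± 5.22) and *Psmb8* (81.0 ± 3.205), and *Tap2* was at 47.3 ± 1.52. The top 4 places and the last place, *Nlrc5* at 18.4 ± 2.54 CPM per kb, were the same as in B6 controls.

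Each immunoproteasome subunit takes the place of a constitutive partner, *Psmb8* of *Psmb5*, *Psmb9* of *Psmb6* and *Psmb10* of *Psmb7*. The ratio of their counts per kb of exon was taken in each sample. With merged exon lengths the size of a ratio is approximate, while its change between groups does not depend on the lengths. *Psmb8* to *Psmb5* was 0.543, 0.521 and 0.530 in B6 controls and 0.409, 0.427 and 0.445 with ACs, so the ratio was lower in every AC sample. In SjSS it was 0.547, 0.483 and 0.549 in controls and 0.791, 0.769 and 0.746 with ACs, higher in every AC sample. *Psmb9* to *Psmb6* went from 0.144 ± 0.00651 to 0.108 ± 0.00233 in B6 and from 0.163 ± 0.0121 to 0.264 ± 0.0147 in SjSS (mean ± SD, n = 3), again with no overlap in either strain. *Psmb10* to *Psmb7* overlapped in B6, at 1.48 ± 0.110 and 1.36 ± 0.133, and was 1.52 ± 0.117 and 3.17 ± 0.113 in SjSS.

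**Figure D3:**
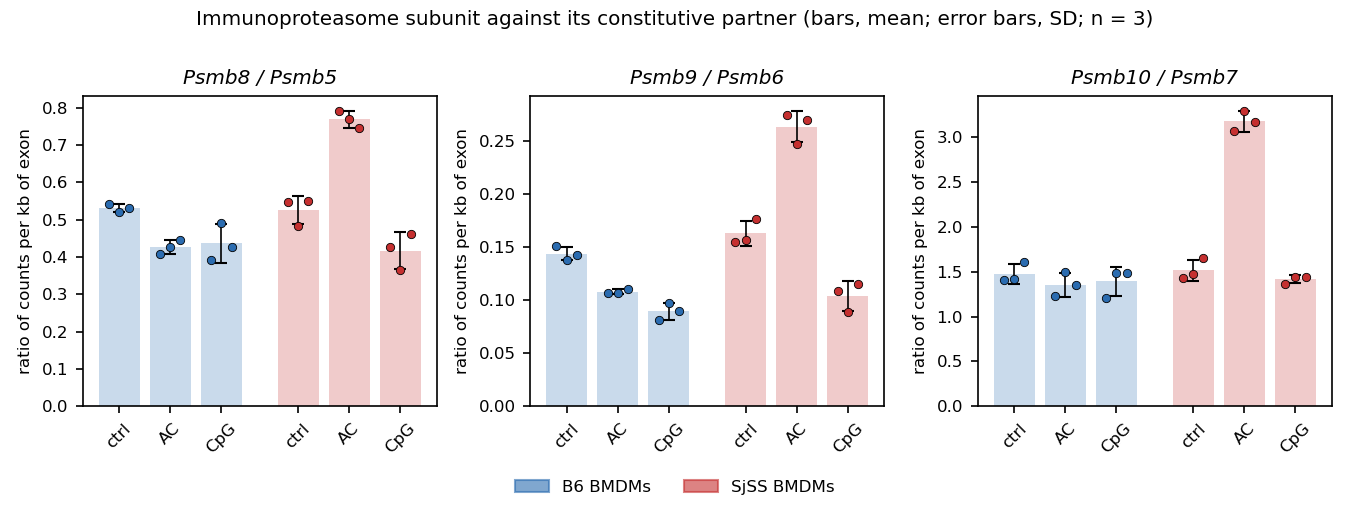
Ratio of each immunoproteasome subunit to its constitutive partner, in counts per kb of exon on linear axes from 0, in all 18 samples. Points are samples, bars are means and error bars are SD of 3 samples. AC treated SjSS samples have the highest ratio in every panel, and the AC and CpG samples of B6 lie at or below their controls for *Psmb8* and *Psmb9*.

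With 3 samples against 3, the exact two-sided permutation test cannot go below p = 0.1, so no ratio could pass on its own, and the 21 comparisons gave 0.162 as the smallest Benjamini-Hochberg value. That smallest p was reached in 13 comparisons with no overlap. In SjSS all 3 ratios were higher with ACs, by 1.46-fold, 1.62-fold and 2.09-fold. In B6 those of *Psmb8* and *Psmb9* were lower, at 0.804 and 0.751 of the control. With CpG the *Psmb9* ratio was lower in both strains, at 0.620 of the control in B6 and 0.637 in SjSS, and the *Psmb8* ratio was at 0.819 and 0.790.

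Behind these ratios the partners themselves moved. *Psmb5*, *Psmb6* and *Psmb7* rose in all 4 responses, with log2 fold changes of 0.30 to 0.56 for ACs in B6, 0.54 to 0.73 for ACs in SjSS, 0.52 to 0.73 for CpG in B6 and 0.41 to 0.52 for CpG in SjSS. Of the other 11 subunits of the 20S core, 11 rose with ACs in B6 (20.0% of all tested genes), 10 with ACs in SjSS (28.6%), and 9 with CpG in B6 (28.1%) and in SjSS (27.8%), at adjusted p under 0.05. Those that did not pass were *Psma1* with ACs in SjSS, and *Psma1* and *Psmb1* with CpG in both strains. Their median AC response was 0.29 in B6 and 0.50 in SjSS.

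The rest of the pathway was read from lists of genes. Of 6 genes for the proteasome activator and assembly, ACs raised 3 in B6 (20.0% of all tested genes) and 4 in SjSS (28.6%). *Psme2*, a subunit of the PA28 activator that interferon is known to induce, rose by 0.62 ± 0.08 in B6 (adjusted p = 5.23e-06) and 1.59 ± 0.08 in SjSS (adjusted p = 3.27e-12), and with CpG by 1.90 ± 0.08 and 1.64 ± 0.08. *Psme1*, the other PA28 subunit, rose by 0.24 ± 0.05 and 0.89 ± 0.05 with ACs. *Pomp*, the factor that helps the core assemble, rose with ACs in SjSS (0.41 ± 0.05, adjusted p = 1.63e-06) and was at -0.02 ± 0.05 in B6 (adjusted p = 0.834).

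Of 5 peptide loading and trimming genes, ACs raised 5 in SjSS (28.6% of all tested genes) and 0 in B6 (20.0%). In B6 *Calr* (calreticulin, -0.31 ± 0.07, adjusted p = 0.00162) and *Pdia3* (ERp57, -0.24 ± 0.08, adjusted p = 0.0268) fell, as did 18.3% of all tested genes. All 5 interactions of strain and AC passed upward (19.6% of all tested genes). *Tapbpl*, which encodes TAPBPR, a peptide editor related to tapasin, rose from 17.9 to 42.4 CPM in SjSS (1.25 ± 0.09, adjusted p = 3.86e-10) and was at 16.2 and 14.2 CPM in B6 (-0.19 ± 0.09, adjusted p = 0.0974). *Erap1*, the aminopeptidase that trims peptides to length, rose in SjSS by 0.50 ± 0.08 (adjusted p = 4.31e-05) and was at 0.06 ± 0.08 in B6 (adjusted p = 0.589). CpG raised *Calr*, *Canx* and *Pdia3* in both strains, by 0.28 to 0.55.

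**Figure D4:**
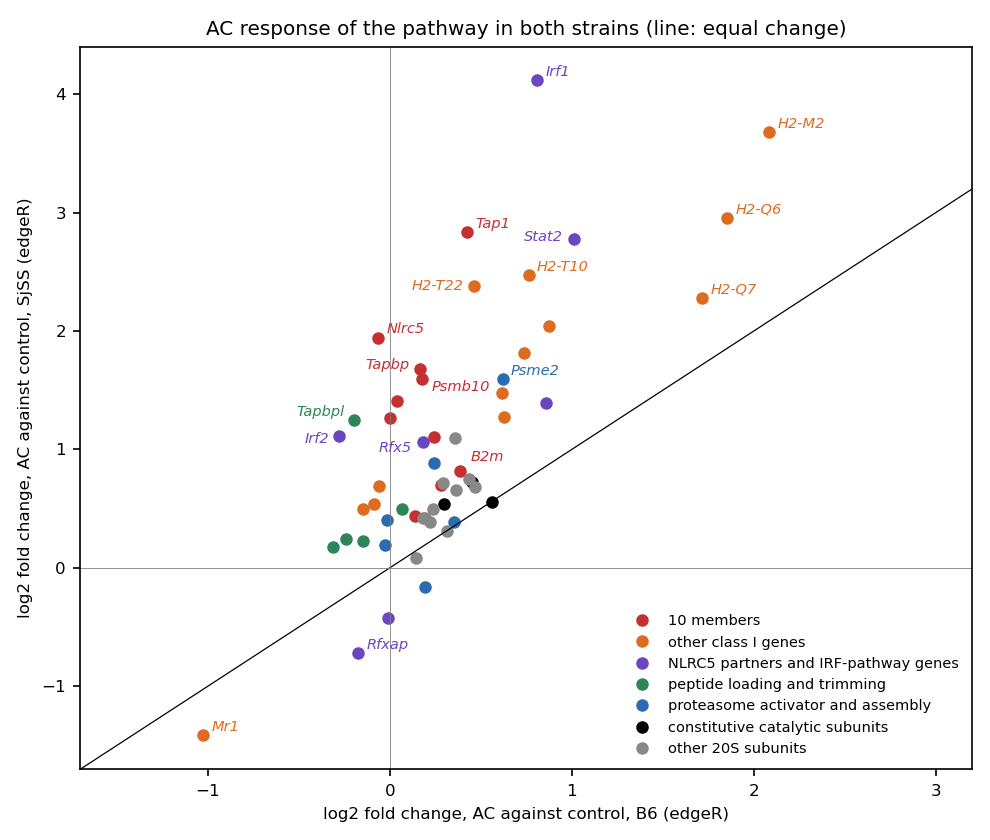
Log2 fold change with ACs in B6 (horizontal) and in SjSS (vertical) for the 10 members and the listed pathway genes other than those of cross-presentation, coloured by list, each from 3 samples a group. The line marks equal change. All 10 members lie above it, and *Mr1* and *Rfxap* are among the genes below 0 in both strains.

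The other class I genes numbered 15 by list, of which 13 were in the table and tested. ACs raised 8 in B6 (20.0% of all tested genes), 3 of them by the call rule (2.43%). In SjSS 11 rose (28.6%), 8 of them by the call rule (7.09%). The median log2 fold change was 0.63 in B6 and 1.82 in SjSS. *H2-Q6* and *H2-Q7*, which encode the Qa-2 molecule, rose beyond the call rule in both strains, by 1.86 ± 0.27 and 1.71 ± 0.29 in B6 and by 2.96 ± 0.28 and 2.28 ± 0.29 in SjSS. These genes are near copies of each other, so their division of reads is uncertain. *H2-T22* rose from 56.98 to 78.4 CPM in B6 and from 64.0 to 335 CPM in SjSS, an interaction of 1.92 ± 0.20 (adjusted p = 3.93e-07), and *H2-T10* gave 1.71 ± 0.19 (adjusted p = 1.20e-06). *H2-M2* rose from 1.04 to 13.3 CPM with ACs and to 10.1 CPM with CpG in SjSS, and from 0.592 to 2.57 and 17.9 CPM in B6. Its interaction was 1.59 ± 0.33 for ACs (adjusted p = 0.000936) and -1.60 ± 0.32 for CpG (adjusted p = 0.00527), so that the strains' order turned with the treatment. *Mr1*, which presents vitamin metabolites to MAIT cells, fell in all 4 responses, from 33.5 to 16.4 CPM with ACs and to 5.57 CPM with CpG in B6, and from 37.0 to 13.9 and 7.14 CPM in SjSS.

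Of 7 partners of NLRC5 and factors of interferon signalling, ACs raised 3 in B6 (20.0% of all tested genes), 0 by the call rule (2.43%). In SjSS 5 rose (28.6%), 3 of them by the call rule (7.09%). *Irf1*, an inducible activator of class I genes, went from 73.0 to 128 CPM in B6 (0.81 ± 0.10, adjusted p = 3.61e-06) and from 78.8 to 1371 CPM in SjSS (4.12 ± 0.11, adjusted p = 6.78e-16). With CpG it was 92.9 CPM in B6 (0.35 ± 0.10, adjusted p = 0.00616) and 85.3 CPM in SjSS (0.11 ± 0.10, adjusted p = 0.370). *Stat2*, which joins IRF9 in the factor that type I interferon activates, went from 60.5 to 122 CPM in B6 and from 96.5 to 663 CPM in SjSS with ACs. The RFX subunits, which bind the X box beside NLRC5, did not move together. In SjSS *Rfx5* rose by 1.06 ± 0.09 (adjusted p = 5.23e-09), whereas *Rfxap* fell by 0.72 on the log2 scale (adjusted p = 3.75e-07) and *Rfxank* by 0.43 (adjusted p = 0.000652). In B6 none of the 3 passed. *Irf2*, known for restraining IRF1, rose in SjSS by 1.11 ± 0.06 (adjusted p = 8.37e-12) and fell in B6 by 0.28 on the log2 scale (adjusted p = 0.00119).

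Of 3 genes known from cross-presentation, ACs raised *Sec22b*, a trafficking SNARE, in both strains (0.19 ± 0.05 in B6 and 0.37 ± 0.05 in SjSS). *Lnpep*, the endosomal aminopeptidase IRAP, rose in SjSS (0.61 ± 0.09, adjusted p = 1.18e-05) and was at -0.07 ± 0.09 in B6 (adjusted p = 0.599). *Wdfy4*, needed for cross-presentation by dendritic cells, fell in all 4 responses, by 0.47 and 0.29 on the log2 scale with ACs in B6 and SjSS and by 0.76 and 0.68 with CpG.

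The 5 genes outside the 10 whose log2 CPM over the 18 samples was most like the mean standardised level of the 10 were *Mov10*, *Rmdn3*, *Batf2*, *Chmp4b* and *Tmem184b*, among 8640 genes with a mean of at least 10 CPM. Their Pearson r was 0.991, 0.991, 0.985, 0.985 and 0.985, and that of the 10 members with their own mean ran from 0.802 for *H2-D1* to 0.987 for *Psmb10*. The 18 points fall into 6 groups, and the 3 AC treated SjSS samples lie far from the rest, so r mainly describes that group. *Batf2* rose by 3.997 ± 0.17 with ACs in SjSS (adjusted p = 1.86e-13) and by 0.77 ± 0.17 in B6 (adjusted p = 0.00150), and *Mov10*, an RNA helicase, by 1.89 ± 0.13 (adjusted p = 2.65e-10) and 0.37 ± 0.13 (adjusted p = 0.0310).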

How the data were processed

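The authors sequenced RNA from 18 BMDM samples, used STAR for alignment to mm10 and Partek Flow's E/M tool for quantification. The values deposited were estimated counts per gene for 20615 genes, not normalized, and 41.1% of them were not whole (tolerance 1e-06). These counts were rounded and analysed here in R 4.3.3 with edgeR 4.0.16: filterByExpr left 15789 genes, TMM set the library scale, and all 18 samples entered 1 quasi-likelihood fit of 6 group means. Benjamini-Hochberg adjustment was applied to each of 9 comparisons on its own. SE was the size of the log2 fold change divided by the square root of F. CPM used TMM scaled totals, and exon lengths were those of all exons of a gene in GENCODE M21, merged. Ratios were compared by exact permutation tests (scipy 1.17.1). Groups came from the labels. The paper gives 3 mice per strain, but which samples came from which mouse is not given in the sources used here. The main fit did not pair samples. Its p values measure the spread between these samples, which may be technical in part.

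The members, lists and motif letters were chosen with earlier results of these data known. Named were the 10 members, genes of the lists, and the 5 other genes most like the members in pattern. 1 gene first placed on a list was left out of its counts and is not reported here. Alternatives were DESeq2 1.42.0, its size factors in edgeR, other filters and fold thresholds, the compared groups alone, replicate blocks, each sample left out, class I genes summed, and other forms of the ratios. On simulated counts for 15404 genes, 187 of 200 genes given a log2 change of 2 were recovered for the AC response in SjSS, with 1 false call, and 170 for the strain by AC interaction, with 2 false calls.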

Additional observations from a re-analysis of the deposited data

Results flagged for a closer look

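For 9 of the 10 genes the AC response differed between the strains by the interaction term of the edgeR fit at an adjusted p under 0.05, each larger in SjSS. The differences in log2 fold change were 0.42 for *H2-K1*, 0.43 for *B2m*, 2.41 for *Tap1*, 1.26 for *Tap2*, 1.51 for *Tapbp*, 0.86 for *Psmb8*, 1.37 for *Psmb9*, 1.42 for *Psmb10* and 2.01 for *Nlrc5*. Among the other listed genes of the pathway, those whose interaction also had a log2 difference over 1.3 in size were *Tapbpl* (1.44), *H2-T10* (1.71), *H2-T22* (1.92), *H2-M2* (1.59), *Stat2* (1.77), *Irf1* (3.31) and *Irf2* (1.39) for ACs. For CpG it was *H2-M2* alone, at -1.60, a smaller rise in SjSS. With 3 samples a group, no group was large enough to look for single samples that stand apart.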

How the results depend on the processing

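The counts of the 10 genes called higher kept to within 1.5 times of the reported ones under DESeq2, its size factors, the other filters, the compared groups alone and both replicate blocks, and no count of genes called lower left 0. With no fold threshold they were 4 for ACs in B6, 10 for ACs in SjSS, 8 for CpG in B6, 6 for CpG in SjSS, 10 for SjSS against B6 with ACs and 9 for the interaction with AC. With 1.3 read as a plain fold change, an alternative chosen after seeing the data, they were 2 for ACs in B6, 10 for ACs in SjSS, 6 for CpG in B6, 3 for CpG in SjSS, 10 for SjSS against B6 with ACs, 9 for the interaction with AC and 0 for the others. With a log2 fold change over 2 they were 1 for ACs in SjSS, 0 for CpG in B6, 2 for SjSS against B6 with ACs and 2 for the interaction with AC. Each sample left out in turn gave 5 to 6 for ACs in SjSS, 0 to 1 for CpG in B6, 5 to 6 for SjSS against B6 with ACs and 5 to 6 for the interaction with AC.

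With 11 other 20S subunits as denominator, 3 small log2 ratio differences between strains turned sign, *Psmb8* in controls (0.0945) and with CpG (0.0407) and *Psmb10* in controls (-0.0132). With single samples left out, 5 ratio differences crossed 0, at -0.0474 to 0.0455 for *Psmb8* between strains in controls, -0.143 to 0.0295 for *Psmb8* between strains with CpG, -0.143 to 0.00816 for the *Psmb10* response to CpG in B6, -0.0677 to 0.0833 for *Psmb10* between strains with CpG and -0.0237 to 0.0986 for *Psmb10* between strains in controls. In all of these the groups overlapped. The 3 ratios with ACs in SjSS stayed higher throughout, at 0.49 to 0.58 for *Psmb8*, 0.66 to 0.76 for *Psmb9* and 1.02 to 1.13 for *Psmb10*.

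Same-numbered samples of a strain correlated in their deviations at r = 0.02 to 0.264, with 9 of 18 pairs over 0.1, and other pairs at -0.252 to 0.074. In 32 of 36 checks a sample correlated best with its own number, a hint from the data that the labels do not state. All 3 pairs were over 0.1 between B6 controls and B6 CpG samples (0.137 to 0.264), where the block left 8 genes past the adjusted p alone. With the number as a replicate block within strain, the genes past the adjusted p alone were 6 in place of 4 for ACs in B6, with *H2-K1* (adjusted p = 8.46e-05) and *H2-D1* (0.0312) added, 10 for ACs and 7 for CpG in SjSS, and 10 in place of 9 for the interaction with AC, with *H2-D1* added (0.30, adjusted p = 0.00239). *H2-D1* passed downward for CpG in SjSS and *H2-K1* and *Tap1* for the interaction with CpG. With the number as a block over both strains, 3 in place of 0 passed upward between strains in controls. Depth limited none of these genes, since the smallest sum over 3 samples of a group was 4142 counts, for *Psmb9*. The precision came from 3 samples a group.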
